A study of Mus musculus with 8 samples.

Results

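The comparison described here is Larp7 loss against control in spermatocytes, the male germ cells that are passing through meiosis. It rests on 4 of the 8 libraries of the series, taken by their stage label: 2 from Larp7 knock-out and 2 from wild-type mice, all C57BL/6. Cells were taken from the seminiferous tubules of adult males, stained with the DNA dye Hoechst and sorted by flow cytometry, and polyadenylated RNA was sequenced. The other 4 libraries hold round spermatids, the haploid cells that follow meiosis, with the same genotypes. The design text calls the knock-out conditional. The labels name neither the Cre driver nor the deleted part of the gene. They do not say that each library came from its own animal, so the spread between libraries may be technical. In the limma fits of splicing, that spread was taken from a trend shared by all events. A small p there does not show that the libraries of an event lay close together.

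Larp7 is an RNA-binding protein that holds the end of the 7SK RNA and stabilises the 7SK ribonucleoprotein. This particle keeps the kinase P-TEFb, made of Cdk9 and a cyclin T, inactive and so limits the release of paused RNA polymerase II. Larp7 also guides the methylation of U6 snRNA, the RNA at the catalytic centre of the spliceosome, which links it to pre-mRNA splicing in the male germ line. The tables analysed count reads over alternative splicing events of 5 types: cassette exons, mutually exclusive exon pairs, alternative 3′ splice sites, alternative 5′ splice sites and retained introns. The inclusion level of an event is the share of reads, per unit length of each form, that support the form holding the alternative part. In an exon pair both forms hold an alternative exon. There the level is that of the form with the exon that comes first in the transcript. A rise or fall of a pair thus means a switch between its exons, not a gain or loss of an exon.

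Neither the headers nor the labels tie sample group 1 or 2 to a genotype. The Larp7 gene itself was therefore examined first. A 125-nt Larp7 exon at chr3:127544154-127544278 on the minus strand (mm10) was included at 2.40% and 0.951% in the libraries of the first sample group. In both libraries of the second sample group it was included at 100%, with 6720 and 5947 inclusion reads and 0 skipping reads. The first group had 17 and 18 inclusion reads against 376 and 1020 skipping reads. These values name the groups and are given as a description, with no test. The exon was also fitted with the other events and is counted in the totals below. Its difference is built in by the naming, so its call is no support. Below, the first sample group is called the exon-lacking group and the second the exon-containing group, after this measurement. Each value is given for both libraries, the exon-lacking group first, and every difference is the exon-lacking minus the exon-containing group.

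Larp7 changed in other ways as well. An 85-nt intron at chr3:127547005-127547089 was retained at 31.7% and 28.2% in the exon-lacking group and at 7.12% and 8.50% in the other, and rose by 22.1 percentage points (limma, adjusted p = 1.23e-21). A 72-nt intron at chr3:127546404-127546475 rose from 7.47% and 7.37% to 14.2% and 16.4% (adjusted p = 8.71e-05). The remaining 4 Larp7 events tested lay above 99% in every library and did not pass the test. Reads over the most covered Larp7 event stood at 184 and 219 CPM (event reads scaled to a common library total) in the exon-lacking group and at 1147 and 1077 CPM in the other. This was a fall of 2.47 on the log2(CPM + 1) scale, with a standard error of 0.14 (limma, adjusted p = 4.01e-06). Larp7 reads were thus lower in both libraries that skip the exon, and both short introns were kept in a larger share of them. Reads of the form keeping the 85-nt intron did not rise, at 235 and 434 against 406 and 437. Reads of its spliced form stood at 323 and 704 against 3372 and 2996.

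**Figure D1:**
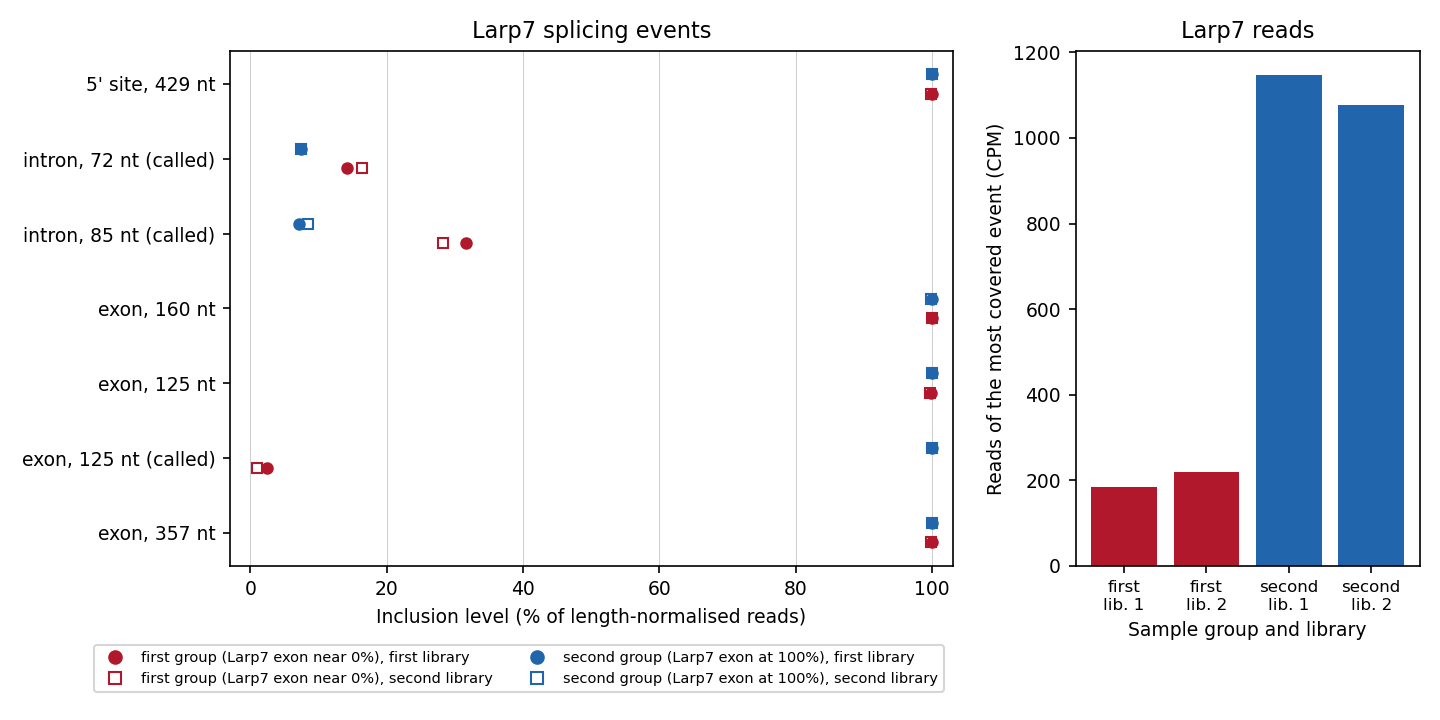
Left, inclusion level (%) of the 7 tested Larp7 events in each of the 4 spermatocyte libraries, red for the exon-lacking (first) and blue for the exon-containing (second) group, with events past the test marked as called. The exon that named the groups carries this mark too, which is no result. Right, Larp7 reads in CPM per library: the exon-lacking libraries sit at 184 and 219, the others at 1147 and 1077.

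RefSeq (GRCm38.p6) places 5 microRNA hairpins on the opposite strand inside the gene, between the skipped exon and the exon that starts at 127546047. They are Mir302b, Mir302c, Mir302a, Mir302d and Mir367, from 127545228 to 127545807, and these pluripotency microRNAs are not covered by the polyadenylated event counts.

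Reads over the events summed to 51786242 and 102000320 in the exon-lacking libraries and to 64657689 and 64421409 in the others. The fit tested 61123 events in 9861 genes. Marker genes of other cells moved with the groups. The summed CPM of the 9 spermatogonial markers with reads in the tables, of 14 listed, stood at 290 and 99.9 in the exon-lacking group against 59.0 and 59.4. Of these, 5 passed the test for higher reads: Dmrt1, Sohlh1, Sohlh2, Stra8 and Uchl1. Uchl1, at 99.3 and 27.3 CPM against 12.8 and 12.01, shows the pattern, with the first exon-lacking library the highest. Of the 9, 1 passed without that library, 0 and 1 without the first and second exon-containing library, and 8 without the second exon-lacking one. For Sertoli cells, the somatic support cells, 3 of 5 markers were higher (Clu, Cst9 and Ctsl), with summed CPM of 228 and 157 against 49.6 and 87.7, and 1 of 5 without the first library of either group. Of all genes, 4.14% had higher reads. Of the spermatocyte markers, the synaptonemal complex genes Sycp1 and Sycp3 were higher and the other 6 did not pass. None of 6 round spermatid, 4 elongating spermatid or 4 Leydig, peritubular and immune markers passed. In bulk libraries, fewer cells of a type and less RNA per cell cannot be told apart, and the part of these cells in the splicing results was not tested.

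In all, 331 events in 254 genes passed the test at an adjusted p below 0.05, which is 0.542% of the events and 2.58% of the genes. Inclusion was lower in the exon-lacking group in 246 of them and higher in 85, with exon pairs counted by the exon that comes first in the transcript. Of the 331, 143 differed by at least 10 percentage points, 36 by at least 20, and 113 by less than 5. The libraries of the groups did not overlap in 328, against 30.7% of all events tested. The exceptions were a 5′ splice site of Stra8, an exon of Apaf1 and an exon of 1810062O18Rik, the last pair named after their values were seen. Against the mean of the exon-containing group, the median size of the 331 was 8.86 points in the first exon-lacking library and 6.82 in the second, the same libraries that chose the events.

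A quasi-binomial test called 330 events, or 0.54%, and shared 258 of the 331. Among the events named in the text it did not call those of Anapc5, Apaf1, Dnah7b, Drc7, Gnai2, Hnrnpa3, Ift122, Pex7, Pnisr, Rbm39, Sf3b1, Sned1, Snhg6, Stra8, Syngr4, Tfam and Zmynd11, nor 1 of 3 Bclaf1 exons. A stricter fit, chosen after seeing the data, kept events with at least 5 reads of the rarer form and let the spread follow total reads. It called 66 events, all among the 331, of which 42 were lower and 24 higher. Of the 72 called events named by the rules given below, it called 26 and did not call 45. Among those it did not call were the largest changes of introns (Adgrl1), 5′ splice sites (Tfam), 3′ splice sites (Kctd9) and exon pairs (Gm5458). Leaving out either exon-containing library left 0 calls, and leaving out either exon-lacking library gave 11384 and 11342, which held only 64 and 71 of the 331, in fits with 1 residual degree of freedom.

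Cassette exons made up 208 of the 331, which is 0.473% of those tested. Of 43940 tested, 171 were skipped more often in the exon-lacking group (0.389%) and 37 were included more often (0.0842%). Of the exons that fell, 127 of 171 (74.3%) had a level above 90% in the exon-containing group, beside 83.8% of all tested exons. Their median level went from 96.9% to 89.6%, and their median length was 135 nt. Of the exons that rose, 28 of 37 (75.7%) lay below 50% in the exon-containing group, beside 8.62% of all tested exons, with medians going from 9.35% to 25.2%. An exon already above 90% has little room to rise, so the scale itself limits where rising exons can start. Their median length was 78 nt. An exon whose length is a multiple of 3 leaves the reading frame intact when skipped, and 73.0% of the exons that rose, 45.6% of those that fell and 38.7% of all tested had such a length. A small shift ran through all tested exons. Their mean inclusion was 89.0% and 89.3% against 90.1% and 90.01%, and 68.4% of them were lower in the exon-lacking group.

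**Figure D2:**
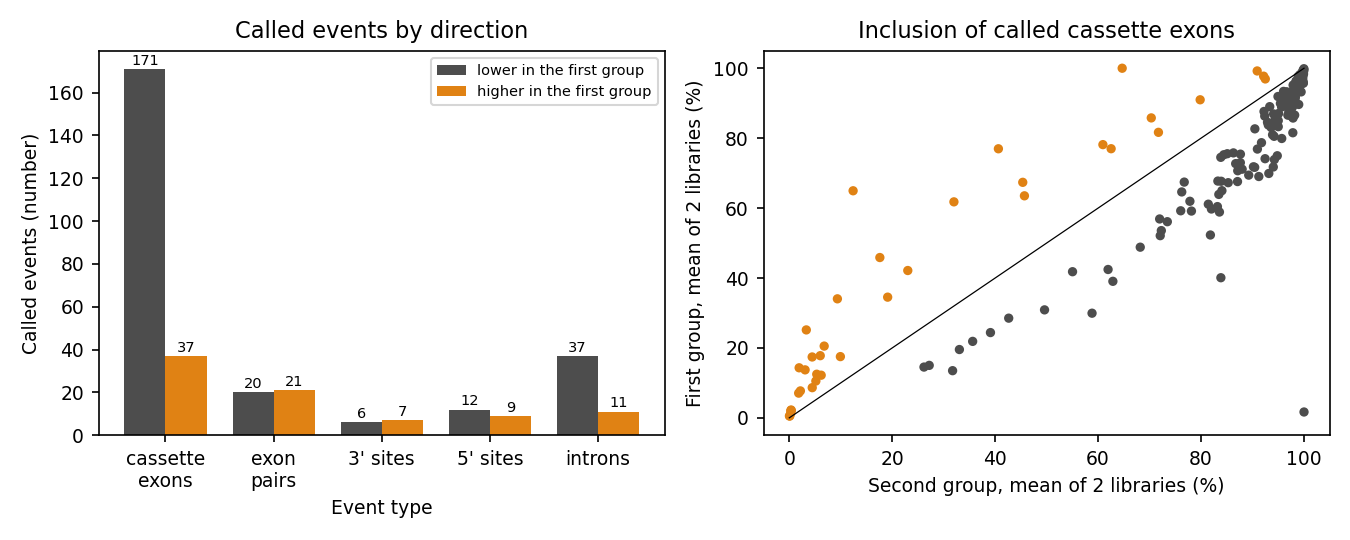
Left, number of called events by type and direction; lower inclusion in the exon-lacking group dominates among cassette exons (171 against 37) and introns (37 against 11). Right, mean inclusion (%) of the 208 called cassette exons in the exon-containing (x) and exon-lacking (y) group, with the line of equal levels; exons that fell lie mostly at the upper right, those that rose mostly at the lower left, and the Larp7 exon alone at the lower right.

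Retained introns had the highest share of calls, 48 of 2485 tested (1.93%), with 37 lower (1.49%) and 11 higher (0.443%). Most called introns were thus retained less in the exon-lacking group. Called introns were long, with a median of 913 nt against 286 nt for all tested. Far more of the tested exons than of the tested introns lay above 90% in the exon-containing group. At such levels the skipping form has a small share of the reads, and a longer intron has more length to draw reads from. The part of read counts in the share and the length of called introns was not tested. Over all tested introns the mean level was 31.7% and 31.4% against 33.0% and 32.6%, and 55.4% were lower, under the same entry filter. Alternative 5′ splice sites had 21 calls among 1883 (1.12%), 12 lower (0.637%) and 9 higher (0.478%). Alternative 3′ splice sites had 13 among 2993 (0.434%), 6 lower (0.2%) and 7 higher (0.234%). Exon pairs had 41 among 9822 (0.417%), 20 lower (0.204%) and 21 higher (0.214%) for the exon that comes first in the transcript.

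Genes of the splicing machinery stood among the called ones, and their lists were read by counts beside the 2.58% of all genes. The list of RNA-binding-motif and arginine-serine-rich splicing modulators had 10 of 27 tested genes with a called event, 4 lower and 6 higher by the event of smallest p. SR proteins, which bind exonic enhancers, had 2 of 12, both lower. The kinases that phosphorylate SR proteins had 2 of 8, 1 lower in an intron and 1 higher in an exon. The hnRNP proteins, which often repress exons, had 2 of 20. Factors of the U1 and U2 snRNPs, which recognise the splice sites, had 2 of 23. The median difference over all tested events of these 5 lists lay between -0.23 and -0.09 points, against -0.22 points for all events, and most of their events did not pass the test.

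The SR protein gene Srsf5 retained a 1229-nt intron (chr12:80947866-80949094) at 14.7% and 14.04% against 30.5% and 25.1%. This fall of 13.4 points had a log2 odds ratio of -1.22 with a standard error of 0.16 (limma, adjusted p = 2.36e-10). In Srsf6 a 1283-nt intron (chr2:162932143-162933425) fell from 41.8% and 49.8% to 21.2% and 27.5% (adjusted p = 6.46e-07). A 268-nt exon inside the same Srsf6 interval fell too, from 57.2% and 66.7% to 37.96% and 46.9%. In Srsf5 the form that keeps the intron made up a smaller share in the exon-lacking libraries. In Srsf6 reads over the inner exon lie in the intron interval too, so a fall of the exon and of the intron cannot be told apart.

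The kinase genes had called events of different types, so their directions cannot be set against each other. In Clk3 a 2100-nt intron was retained at 11.5% and 11.7% against 20.8% and 18.003% (adjusted p = 0.00699). In Clk4 a 67-nt exon rose to 49.8% and 41.9% from 14.3% and 20.9%, a gain of 28.3 points (adjusted p = 3.39e-05). Clk3 and Clk4 phosphorylate SR proteins and so set their activity in the nucleus.

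Among the splicing modulators, Rsrp1, an arginine-serine-rich protein gene, showed the clearest gain. Its 45-nt exon (chr4:134925777-134925821) was included at 32.7% and 35.4% against 9.06% and 9.63%, with a log2 odds ratio of 2.34 and a standard error of 0.32 (adjusted p = 4.60e-09). The other called Rsrp1 events, alternative 3′ splice sites adding the same 709 nt, went both ways. One rose by 13.6 points and the other fell by 10.8 points. Rbm5, a splicing regulator needed for spermatid differentiation in mice, lost inclusion of an 85-nt exon, at 57.3% and 61.0% against 79.0% and 77.2% (adjusted p = 2.14e-05). A second Rbm5 exon of 61 nt fell from 97.4% and 96.7% to 88.0% and 90.6%. Neither length is a multiple of 3, so in coding sequence skipping either exon alone shifts the frame.

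U2surp, which works with the U2 snRNP, used a 5′ splice site that adds 3 nt at 50.3% and 50.2% against 25.6% and 21.2% (adjusted p = 0.00284). In Srek1, a splicing regulator with arginine-serine repeats, an alternative 3′ splice site adding 188 nt rose to 21.9% and 16.2% from 9.13% and 7.14%. Bclaf1 lost inclusion of 3 exons, for example one of 228 nt at 21.3% and 22.4% against 36.9% and 34.4%. Sfswap, itself a regulator of alternative splicing, lost a 153-nt exon, at 69.9% and 80.1% against 96.5% and 93.1%. None of these groups of libraries overlapped, which held for 328 of the 331 called events and for 30.7% of all events tested.

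The other 4 members of the list moved less. The 3300-nt intron of Rbm25 rose to 19.1% and 17.8% from 11.1% and 12.3%. The 736-nt intron of Pnisr fell to 13.05% and 14.4% from 22.9% and 20.7%. The 75-nt exon of Rsrc2 rose to 13.3% and 11.6% from 5.50% and 5.17%. Rbm39 rose in an exon pair, at 17.2% and 8.31% against 3.72% and 6.09%, where the exon-lacking libraries differed from each other by more than the groups' nearest values.

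For the U1 snRNP, Snrnp70 encodes the 70K protein that contacts the 5′ splice site. Its 80-nt exon was included at 27.2% and 34.5% against 49.0% and 50.2%, a fall of 18.7 points (adjusted p = 0.000741). For the U2 snRNP, Sf3b1 binds the branch site region. Its 1813-nt intron was retained at 6.52% and 3.11% against 2.19% and 2.67%, and its rise was not called by the quasi-binomial test (adjusted p = 0.248). Among hnRNP genes, a 36-nt exon of Hnrnpa2b1 rose to 8.91% and 8.36% from 4.49% and 4.43%. An exon pair of Hnrnpa3 fell to 5.35% and 11.3% from 12.9% and 19.5%. Both hnRNP genes have processed copies in the genome, so their counts are less certain.

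**Figure D3:**
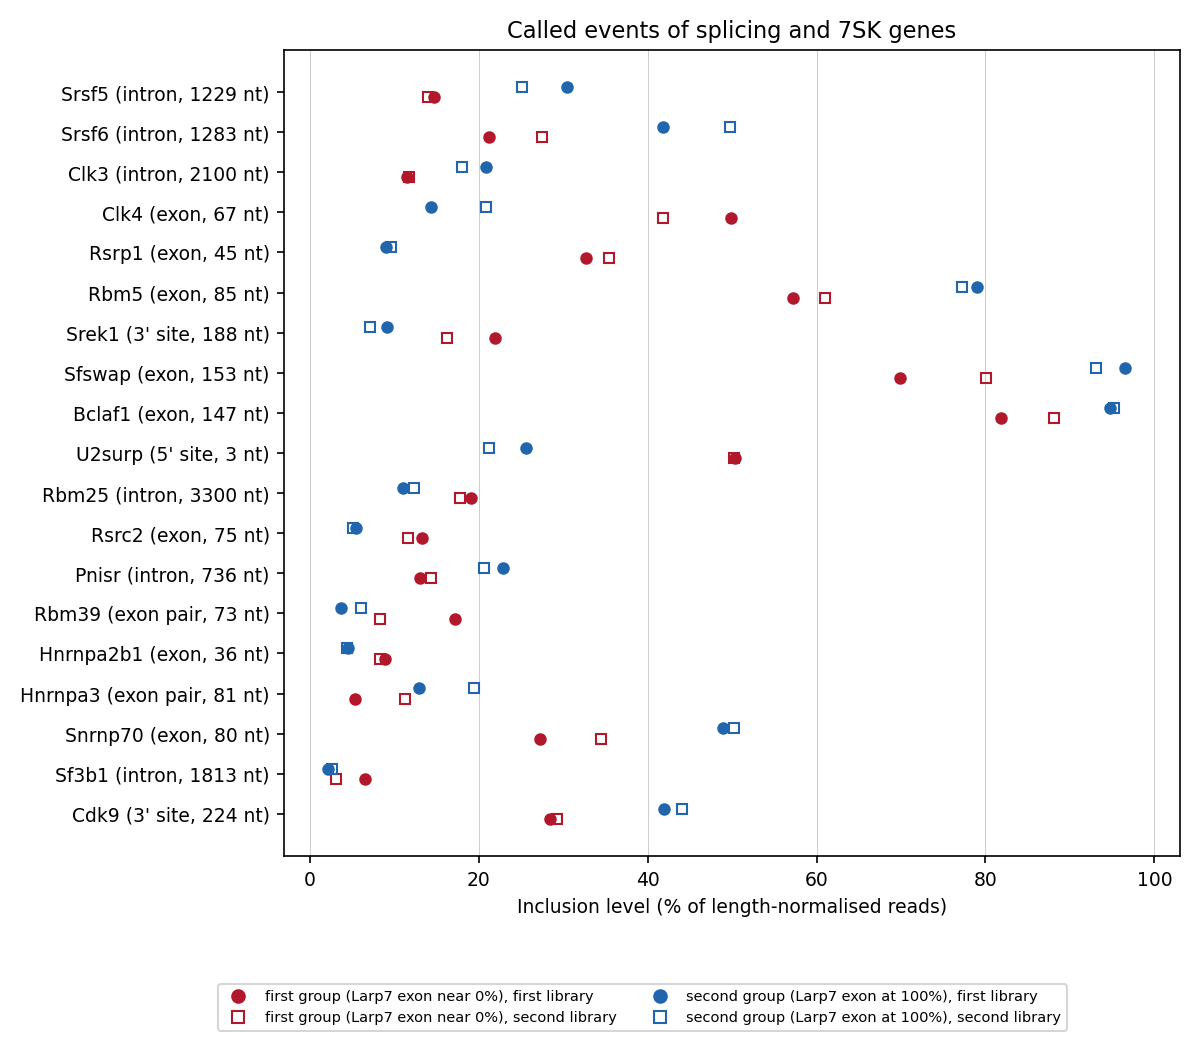
Inclusion level (%) of the called event of smallest p in 19 splicing and 7SK genes, 1 row a gene, in each of the 4 spermatocyte libraries (red exon-lacking, blue exon-containing). The gaps run both ways: Srsf5, Srsf6, Snrnp70 and Cdk9 lie lower in the exon-lacking group, Clk4, Rsrp1 and U2surp higher.

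Other parts of the machinery had no call. Of 23 tested genes of the tri-snRNP and the catalytic spliceosome, 0 had a call in the limma fit and 0 in the quasi-binomial one, while 9 of their 122 events had an unadjusted p under 0.05. For 21 tissue exon regulators, such as the Ptbp, Mbnl and Rbfox families, both counts were 0, with 18 of 165 events under 0.05. For 14 genes of nonsense-mediated decay both counts were 0, with 13 of 128. Over all genes 5296 of 61123 events had an unadjusted p under 0.05.

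In the lists closest to Larp7's own work, 1 of 16 genes of U6 RNA binding and modification had called events, and that gene was Larp7. Of 17 genes of the 7SK particle and P-TEFb, Larp7 and Cdk9 had them. Cdk9 is the kinase that the 7SK particle holds inactive. Its alternative 3′ splice site adding 224 nt (chr2:32710568-32710791) was used at 28.4% and 29.3% against 42.0% and 44.1%. This fall of 14.2 points passed the test (limma, adjusted p = 0.0257). Cdk9 reads were 0.14 lower on the log2(CPM + 1) scale and did not pass (adjusted p = 0.633). Reads of the U6 list moved more than its splicing, with 5 of 16 genes higher and Larp7 lower, beside 4.14% of all genes higher and 0.649% lower. The 5 were Lsm3, Lsm7 and Lsm8, of the ring that binds the end of U6, Ssb, which encodes the La protein, and Fbl, the methyltransferase of box C/D particles. Lsm8 stood at 87.1 and 65.0 CPM against 42.2 and 38.5 CPM, and Fbl at 64.9 and 37.7 CPM against 24.4 and 25.6 CPM. With median-ratio scaling Lsm3 and Lsm7 missed the threshold (adjusted p of 0.0765 and 0.0632 in limma), and 0 of the 5 calls were left without the first exon-lacking library or without either exon-containing one. The first exon-lacking library, which carried the most spermatogonial marker reads, was the highest for all 5, and the part of other cells was not tested.

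Meiotic genes were next. In the synaptonemal complex and chromosome axis list, 3 of 22 genes were called (13.6%, beside 2.58% of all genes). Sycp2, an axial element protein, gained a 35-nt exon (chr2:178394949-178394983), at 75.9% and 78.1% against 61.4% and 63.7% (adjusted p = 8.47e-05). Hormad1, an axis protein that monitors chromosome pairing, lost a 55-nt exon, at 13.8% and 16.2% against 23.4% and 30.9%. Its reads were also higher, by 0.98 on the log2(CPM + 1) scale (adjusted p = 0.014). Stag3, a meiotic cohesin subunit, had 3 called events. A 416-nt Stag3 intron rose to 9.48% and 6.33% from 2.97% and 3.69%, and its exons of 80 nt and 102 nt fell, the latter to 86.9% and 86.6% from 94.1% and 95.7%.

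Of 25 meiotic recombination genes only Spo11 was called. Spo11 makes the DNA double-strand breaks that start recombination, and its 5′ splice site adding 970 nt went to 89.4% and 91.1% from 97.1% and 98.6% (adjusted p = 0.0191). Reads of the shorter form were few, at 26 and 43 against 13 and 5, and the stricter fit did not call this event. Of 23 genes of the piRNA pathway, which silences transposons, only Rnf17 was called. Its 164-nt exon rose to 97.6% and 97.9% from 93.1% and 91.3%. Of 75 histone and DNA modifying enzymes and readers only Brdt, the testis bromodomain protein, was called, with a 173-nt exon at 97.3% and 96.9% against 99.2% and 99.3%. The called share of these 3 lists lay between 1.33% and 4.35% of their genes, beside 2.58% of all genes. Ccna1, the meiotic cyclin and a marker of spermatocytes, had a 224-nt exon that fell to 96.3% and 96.1% from 98.6% and 98.4%.

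Genes of the later sperm head and membrane are already transcribed in spermatocytes. In the acrosome and spermatid list 8 of 35 genes had a called event, 7 lower and 1 higher by the event of smallest p, and 15 of 854 events were called (1.76%, against 0.542% of all). The CatSper channel, which lets calcium into the sperm tail, had 3 such genes. In Catsperd an 83-nt exon fell to 91.0% and 87.5% from 95.9% and 96.9%, while a 114-nt exon rose to 89.8% and 92.1% from 80.1% and 79.6%. Catsperg1 lost a 159-nt exon, at 29.04% and 27.99% against 45.1% and 40.2%, and Catsperg2 a 138-nt exon, at 92.9% and 91.7% against 96.9% and 97.3%. Catsperg1 and Catsperg2 are close paralogs whose reads the counting could split, so both are uncertain.

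The genes of the sperm surface proteins Adam2, Adam3 and Adam32 each skipped an exon slightly more often. Adam2 went to 89.6% and 90.2% from 95.5% and 95.3%. Adam3 went to 92.7% and 93.1% from 96.7% and 97.9%, and Adam32 to 97.1% and 96.1% from 99.3% and 99.2%. Adam32 thus fell by 2.65 points and Adam2 fell by 5.49 points. Ldhc, the lactate dehydrogenase of germ cells, moved in an exon pair, at 20.4% and 26.7% against 37.4% and 30.1%, with a tight gap between 26.7% and 30.1%. Zpbp2, an acrosomal protein, rose in an exon pair from 0.416% and 0.417% to 1.69% and 1.44%.

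In the flagellum and cilium list 9 of 106 genes were called (8.49%, beside 2.58% of all), 8 lower and 1 higher. Of its 1589 events 11 were called (0.692%), near the 0.542% of all events. Kif3a, the kinesin motor of intraflagellar transport, skipped a 9-nt exon more often, at 85.1% and 90.1% against 97.3% and 96.8% (adjusted p = 0.000213). Cep164, a protein of the basal body's distal appendages, lost a 297-nt exon, at 80.4% and 82.7% against 97.5% and 98.2%. Cfap46, of the central apparatus, was the gene that rose. A 5′ splice site adding 56 nt was used at 56.8% and 58.7% against 34.8% and 35.1% (adjusted p = 0.00168). Odf2l fell by 19.1 points and Ift122, of the transport train, fell by 9.16 points. The smallest fall was that of Dnaic1, a dynein arm chain, which fell by 2.87 points. Cfap65, Drc7 and Dnah7b lay between Dnaic1 and Ift122, all from levels above 96%. Drc7 reads also fell by 0.77 on the log2(CPM + 1) scale (limma, adjusted p = 0.0423). Dnah7b has near-identical copies and is uncertain.

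**Figure D4:**
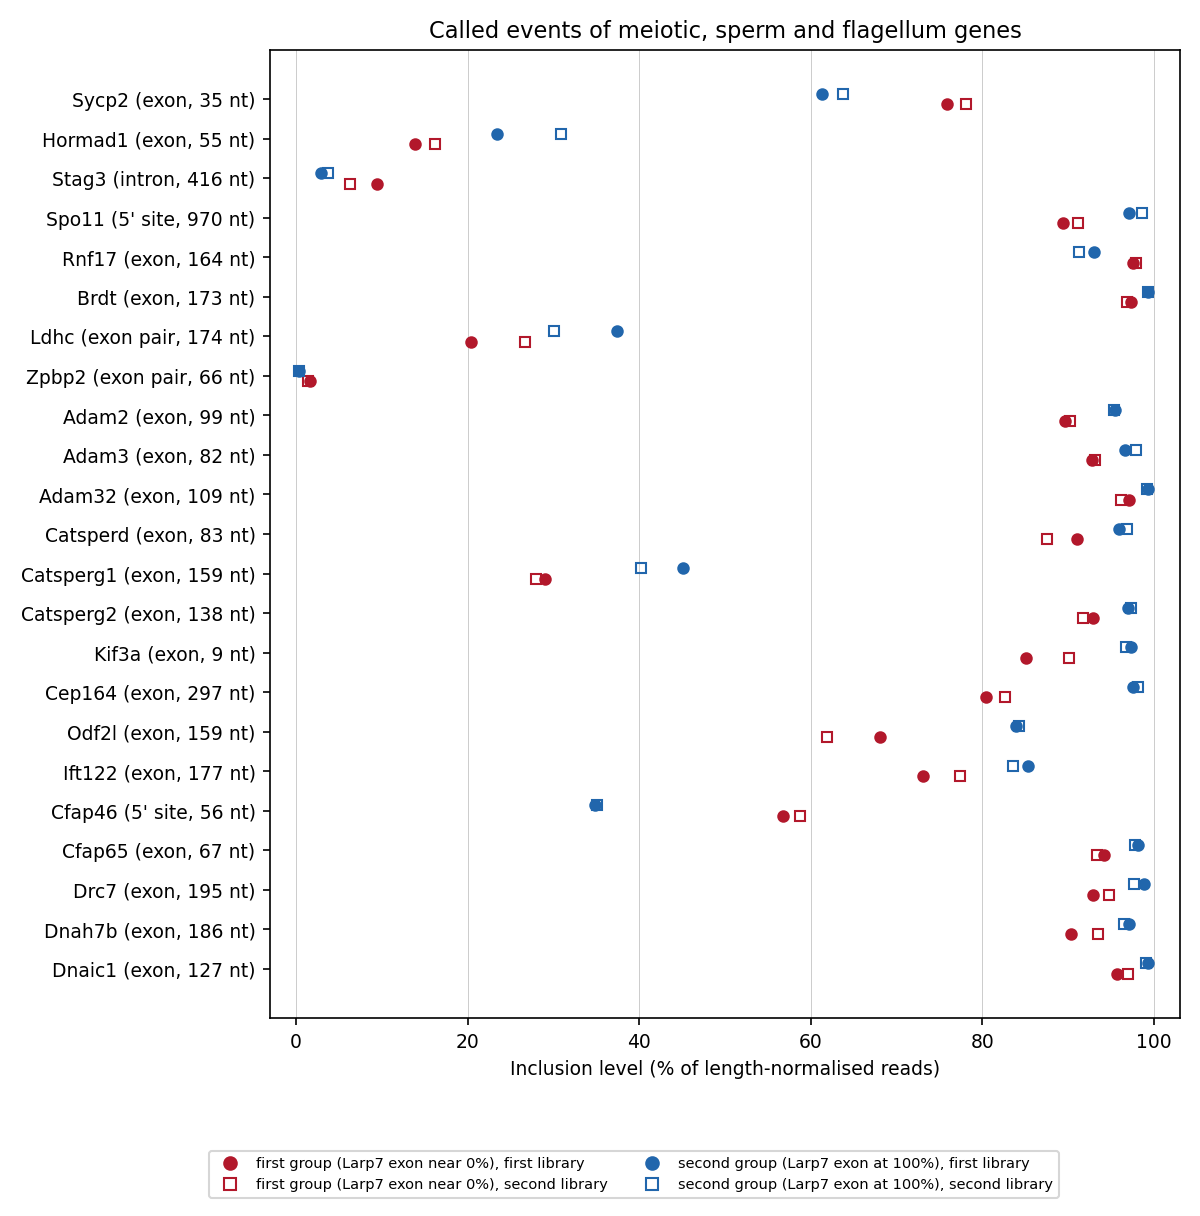
Inclusion level (%) of the called event of smallest p in 23 meiotic, sperm and flagellum genes in each of the 4 spermatocyte libraries (red exon-lacking, blue exon-containing). Most rows lie at the right with the red points a few points lower; Sycp2, Rnf17, Cfap46, Stag3 and Zpbp2 have the red points higher.

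The largest changes of each event type follow, most of them in genes outside these lists. After Larp7, the cassette exon with the largest difference belonged to Ccdc7a, at 93.6% and 36.3% against 10.8% and 13.95%, where the exon-lacking libraries were far apart. Sned1, an extracellular matrix gene, went to 62.2% and 17.9% from 93.0% and 74.7%, also with a wide spread. Ssbp4 gained a 60-nt exon (chr8:70599840-70599899), at 79.3% and 74.6% against 34.5% and 46.8% (adjusted p = 2.95e-05), and stayed in the stricter fit. Pex7, the receptor that imports enzymes into peroxisomes, gained a 78-nt exon, at 62.1% and 61.4% against 24.3% and 39.6%. Mettl17, of the mitochondrial ribosome, lost a 251-nt exon, at 53.7% and 50.9% against 80.9% and 82.7%.

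Among introns, Adgrl1, an adhesion receptor, fell from 81.3% and 72.4% to 21.5% and 34.9%, the largest intron change (adjusted p = 0.00031). A 691-nt intron that spans the Mettl17 exon fell from 77.4% and 80.2% to 46.6% and 43.4%. Reads over that exon lie in the intron interval too, so the 2 changes cannot be told apart. Ist1, of the membrane-cutting ESCRT machinery, fell from 64.1% and 60.9% to 34.3% and 35.4% (adjusted p = 1.12e-06). Ccl27a, a chemokine gene, fell to 32.4% and 41.0% from 59.0% and 58.4%. The snoRNA host Snhg6 fell to 3.44% and 8.02% from 27.02% and 28.2%, on few reads. Larp7's own 85-nt intron was the only one among these 6 to rise.

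Alternative 5′ splice sites gave Tfam as the largest change. Tfam packages mitochondrial DNA and starts its transcription. The form that runs past the upstream site into the next 395 nt (chr10:71237840-71238234) made up 57.8% and 46.1% against 15.2% and 22.5% (limma, adjusted p = 0.0385). Reads were few, from 35 in the lowest library, and the quasi-binomial test did not call it (adjusted p = 0.0737). The upstream site, which this form does not use, is shown because the change is a choice at that site; the first 6 intron bases are in capitals, after 10 exon bases, at chr10:71238215-71238244 on the minus strand (mm10, RefSeq GRCm38.p6).
Tfam upstream 5′ splice site: gggcctggggGTAAGCcgccgctcagcaac

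Bscl2, the lipid droplet protein seipin, used a site adding 1010 nt at 65.1% and 59.97% against 92.2% and 95.7%. Ccdc61, a basal body protein, used one adding 12 nt at 75.8% and 69.6% against 93.0% and 93.7%. Zmynd11, a reader of histone H3.3, went to 16.8% and 16.9% from 32.5% and 44.2%. U2surp and Cfap46, given above, complete the 6 largest.

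Alternative 3′ splice sites changed by less than 20 points each. Kctd9 fell to 55.5% and 69.3% from 84.8% and 79.6%. Gnai2, an inhibitory G protein subunit, rose to 68.3% and 57.5% from 39.4% and 47.8%, and Chchd7 fell to 47.7% and 45.5% from 66.4% and 64.8%. Anapc5, a subunit of the anaphase-promoting complex, rose to 60.7% and 64.2% from 45.1% and 42.1%. A site of Chfr, a mitotic checkpoint ubiquitin ligase, rose to 84.4% and 83.3% from 74.0% and 71.6%, and Cdk9, given above, completes the 6.

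For exon pairs, Gm5458 had the largest change, at 59.6% and 74.8% against 10.1% and 10.6%. Gm5458 and Ccdc7a belong to families of near-identical copies, so their values are uncertain. Naa40, which acetylates histone tails, fell to 62.1% and 65.4% from 81.3% and 85.3%. Baz1a, a chromatin remodelling subunit, fell to 66.7% and 66.3% from 88.9% and 81.8%. Chfr rose to 29.6% and 26.0% from 10.4% and 7.67%, and G3bp1, of stress granules, to 32.5% and 30.3% from 13.6% and 16.0%. An exon pair of Ccdc7a fell to 62.2% and 97.7% from 98.3% and 98.0%, and here 1 exon-lacking library carried almost the whole change.

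Changes in reads were set beside those in splicing. Of 9861 genes, 408 had higher reads (4.14%) and 64 lower reads (0.649%) in the exon-lacking group, and the median of all genes was 0.15 on the log2(CPM + 1) scale. Of the 254 genes with a called event, 9 had higher reads and 9 lower (3.54% each), with a median of -0.06. Without the first exon-lacking library the count of genes with changed reads fell from 472 to 72. Median-ratio scaling moved the median of all genes to 0.01 and the split to 450 higher and 254 lower.

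Of the 331 events, 298 could also be fitted in round spermatids. There 258 had the same direction (86.6%), beside 57.7% of all 32423 events in both stages. The median size was 8.02 points in spermatocytes and 2.64 points in round spermatids, and 275 of the 298 were smaller there. The events were chosen by their size in spermatocytes, so a smaller value elsewhere is built into this comparison. A test of the stage difference itself called 0 of the 298 and 0 of all events (0%, limma, smallest adjusted p = 0.208), with 84 of the 298 and 2666 of all events at an unadjusted p under 0.05.

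Passing in round spermatids as well were 20 of the 298, where 53 of all 32423 events were called (0.163%). The Larp7 exon was among them, at 0.279% and 0.598% against 100% in both exon-containing libraries. It named the groups, so its call is no support. Dnm2, the membrane-cutting GTPase dynamin 2, gained a 12-nt exon in both stages: 84.5% and 87.1% against 71.3% and 69.3% in spermatocytes, and 21.2 points more in round spermatids. Ssbp4 gained its exon by 36.3 and 36.2 points, and the 114-nt exon of Catsperd by 11.2 and 16.1 points. The Clk3 intron fell by 7.82 points in spermatocytes and fell by 7.88 points in round spermatids. BC051142, a testis-expressed gene, had 4 events that fell in both stages, and Adam3, Atp8b3, Mroh2b and Syngr4 had 1 each. Those not named above were chosen after their values were seen. Levels of single libraries could recur in both stages: the Ccdc7a exon stood at 93.6% and 36.3% in the exon-lacking spermatocyte libraries and at 94.3% and 29.6% in those of round spermatids. The labels do not say whether both stages came from the same animals, so agreement between the stages may not be independent.

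**Figure D5:**
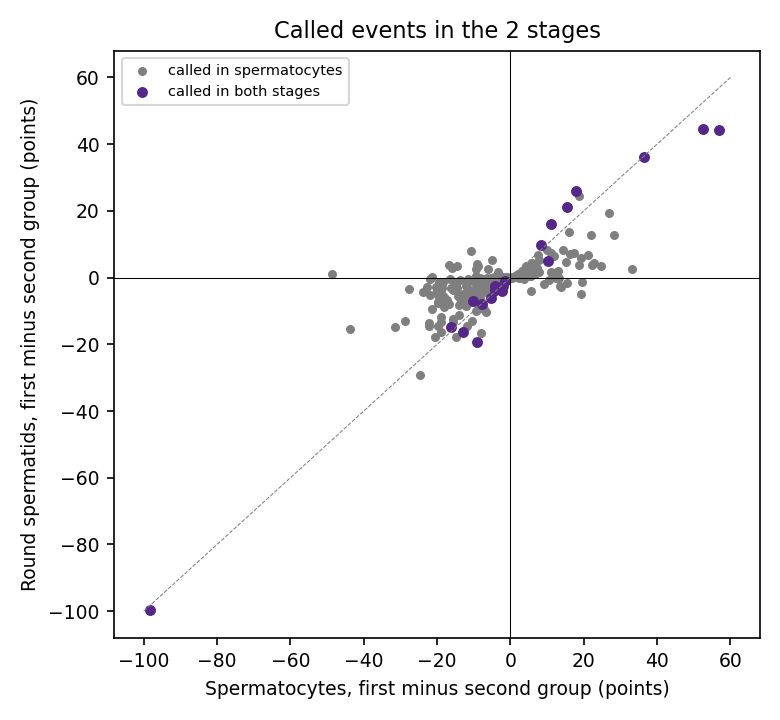
Difference in mean inclusion (percentage points, exon-lacking minus exon-containing group) in spermatocytes (x) and round spermatids (y) for the 298 called spermatocyte events fitted in both stages; purple points, 20 events also called in round spermatids, lie near the dashed line of equal size, while most grey points lie nearer to 0 on the y axis.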

How the data were processed

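Polyadenylated RNA of sorted spermatocytes was sequenced from 2 Larp7 knock-out and 2 wild-type libraries; reads were aligned with STAR to mm10, per the submitters' processing notes. The names of the deposited tables point to MATS as the event counter; versions were not given in the sources used here. Per the file headers, the deposited tables give, for each sample group, read counts of the inclusion and the skipping form as 2 comma-joined values a cell, the lengths of both forms, inclusion levels, the difference in level (a score from -1 to 1 here), and the authors' p-value with its FDR. Levels recomputed from reads and form lengths (alternative part plus 149) lay within 0.0005 of the deposited ones.

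Tested events had a mean of at least 10 reads a library and at least 1 read of each form. With limma 3.58.1 (R 4.3.3), length-normalised log2 odds of inclusion were fitted. Weights were the inverse counting variance, the spread followed the reads of the rarer form (eBayes trend), and 0.5 reads were added to each form, scaled to the event. Benjamini-Hochberg adjustment ran over all 61123 events, and an adjusted p below 0.05 was a call. All events shared the spread of this trend, and an event's own spread between libraries did not enter its p. Reads per gene were those of its most covered event, as log2(CPM + 1) with a limma trend. Overlapping events share reads, so library totals exceed the reads sequenced. Plots used matplotlib 3.10.9 in Python 3.11.15.

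Named events are every tested Larp7 event, up to 6 genes per type with the largest difference among called events of at least 10 points without overlap, and every listed gene with a called event (1 event a gene, the smallest p). The comparison, the gene lists and the tests were chosen with earlier results of these data known. Alternatives covered the test, the trend, weights, added reads, filters, scaling and each library left out.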

Additional observations from a re-analysis of the deposited data

How the results depend on the processing

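All of the 331 events that an alternative could test kept their direction, except Stra8, whose log2 odds ratio turned to -3.05 without the second exon-containing library and ran up to 4.07 without the first. The quasi-binomial test and the change of trend could not alter a direction. The other settings reused the libraries that chose the events, so kept directions are no support. Calls depended far more on the fit. The count was 330 with the quasi-binomial test, where introns that rose numbered 7, and 357 with unscaled added reads. With the spread following total reads, or with no filter on total reads, 0 events were called, cassette exons and introns in either direction included. Without count weights 21 were called: 16 cassette exons (12 lower, 4 higher) and 1 intron, with 0 lower and 1 higher. With 8 libraries in the fit 590 were called: 406 cassette exons (339 lower, 67 higher) and 90 introns (67 lower, 23 higher). The authors' deposited table gave 1653 events at an FDR under 0.05 with levels at least 0.1 apart: 1084 cassette exons (816 lower, 268 higher) and 202 introns (126 lower, 76 higher). Of these 140 were among the 331, which had no such cut on size and of which 143 differed by at least 10 points.

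With 1 library left out, 0 to 11384 events were called. Spermatocyte cassette exons called ranged from 0 to 10596 (0 to 10209 lower, 0 to 387 higher) and introns from 0 to 111 (0 to 92 lower, 0 to 19 higher), in fits with 1 residual degree of freedom. The stricter fit, added after seeing the data, called 66: 27 cassette exons (16 lower, 11 higher) and 19 introns (15 lower, 4 higher). With at least 5 reads of the rarer form, a planned filter, 455 events were called. Leaving out 1 library under that filter, added after seeing the data, gave 2 to 53 events. Cassette exons then numbered 1 and 31 without an exon-lacking library (0 and 24 lower, 1 and 7 higher) and 17 and 23 without an exon-containing one (13 and 14 lower, 4 and 9 higher). Introns numbered 1 and 11 (0 and 6 lower, 1 and 5 higher), and 10 and 20 (8 and 16 lower, 2 and 4 higher).

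Genes with changed reads numbered 38 when summed over events (28 higher, 10 lower), 67 without a filter (52 higher, 15 lower), 704 with median-ratio scaling (254 lower), and 38 to 1900 with 1 library left out (32 to 1674 higher, 6 to 226 lower). The stage difference then gave 0 to 7 of the called events and 0 to 8 of all events. No paired analysis was possible because the count columns carry no replicate numbers. Apart from fewer samples or other genes tested, the cause of these shifts was not tested. With 2 libraries a group, and few reads for the rarer form of many events, differences of a few points rest on the shared spread.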

Other observations

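Several genes carried more than 1 called event: 51 of the 254 did, 31 of them across event types. They are described here after their values were seen. Mroh4 had 6, of cassette exons and exon pairs that share a 147-nt exon; as a cassette this exon fell to 74.6% and 76.5% from 85.3% and 84.9%. Chfr and Cox6b2, the testis form of a cytochrome c oxidase subunit, had 5 each. In Cox6b2 a 5′ splice site adding 17 nt rose to 71.9% and 66.2% from 52.7% and 53.5%. Overlapping events of a gene share reads, so these are not separate measurements.

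Very short exons went both ways. Besides those of Dnm2 and Kif3a, a 24-nt exon of Cspp1, a centrosome and cilium gene, rose to 22.9% and 11.9% from 4.88% and 4.02%. A 27-nt exon of Fip1l1, a factor of messenger RNA polyadenylation, rose to 23.8% and 17.2% from 7.30% and 6.26%. Cadm1, an adhesion protein between germ cells and Sertoli cells, gained an 84-nt exon, at 69.8% and 64.9% against 44.8% and 45.9%. Among introns, Mat2a, which makes the methyl donor S-adenosylmethionine, fell to 4.96% and 3.49% from 13.1% and 14.1% (limma, adjusted p = 1.37e-06). The snoRNA host Gas5 fell to 14.9% and 13.9% from 22.4% and 24.8%.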
